A study of Homo sapiens and Mus musculus with 99 samples.

Results

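The 44 genes described here encode proteins of the lysosome and of autophagy. They were listed by symbol, with earlier results of these data known, and all 44 matched 1 row each among the 57820 gene IDs of the human count tables. Sorted by role, 3 encode transcription factors (TFEB, TFE3 and MITF), 7 proteins of the lysosomal membrane, 12 enzymes or cofactors of the lysosomal lumen, 8 parts of the proton pump V-ATPase, 9 autophagy proteins and 5 sensors of amino acids at the lysosome. In each of the 6 human experiments 43 of them had enough counts to be tested. NEU1, a sialidase, was not tested, with 0 to 6 counts in all but 2 of the 51 libraries (173 and 38 counts). These counts do not show that the cells lack NEU1, and why they were so low was not tested.

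The cells were NCI-H1437 and NCI-H292, 2 established epithelial lines from non-small cell lung cancer, grown in RPMI 1640 medium and treated for 4 h before RNA was taken. The study asked how lung epithelium responds to extract of the mould Alternaria alternata (ALT) and to its pore-forming protein, made of the subunits Aeg-S and Aeg-L (Aeg-S/L when joined). Experiment H1437-1 held DPBS (the mock control), ALT and ALT+Tra with 3 libraries each, where Tra is the inhibitor that a deposited table name calls a MEK inhibitor. Experiment H1437-2 held DPBS, Aeg-S, Aeg-L, Aeg-S/L and Aeg-S/L+Tra, and H1437-3 and H292-2 held DPBS, Aeg-S/L, Aeg-S/L+BAPTA-AM and Aeg-S/L+EGTA, with 2 libraries per group. Experiments H1437-4 and H292-1 held DPBS, WT ALT, aegs KO ALT and aegl KO ALT, also with 2 libraries per group, where KO extracts come from mould lacking 1 subunit gene. BAPTA-AM enters cells and binds calcium there, whereas EGTA binds calcium outside them. The sources used here do not say whether the DPBS cells of the chelator or inhibitor experiments received any vehicle, and no group held a chelator or Tra without a stimulus.

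The lysosome is the acidic compartment in which cells break down proteins, lipids and sugars, and autophagy delivers cytoplasm and damaged organelles to it. TFEB, TFE3 and MITF are related factors that, when mTORC1 at the lysosome is inactive, enter the nucleus and bind E-box DNA in the promoters of many lysosome and autophagy genes. Calcium released from the lysosome is known to act on TFEB through calcineurin, and the folliculin complex with the Rag GTPases ties them to amino acid supply.

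To show where such DNA lies, the 300 bases around each RefSeq start (250 before and 50 after it, assembly GRCh38.p14) were searched for 4 motifs on both strands, and 33 of the 44 genes had such a window. The E-box CACGTG was present in 12 of the 33 (36.4%) and in 8.77% of 27305 genes. TCACGTGA, which contains the E-box, was present in 5 of the 33 (15.2%) and in 1.18% of genes. The members were chosen as genes of the type that TFEB acts on. An excess of E-boxes over all genes was therefore built into the choice and is not a result about them. The AP-1 motif TGACTCA was present in 5 (ATG9B, CD63, FNIP2, RRAGC and TFE3; 15.2%, against 6.05% of genes), and the CRE motif TGACGTCA in GABARAPL1 and MITF (6.06%, against 2.25%). Printed below, 5′ to 3′ on the gene's strand with motifs in capitals, are the bases just before the start for the 5 members with TCACGTGA and for 5 members with an E-box, AP-1 or CRE motif whose counts changed in several comparisons. A match of letters describes the window and is not evidence of binding.
LAMP1: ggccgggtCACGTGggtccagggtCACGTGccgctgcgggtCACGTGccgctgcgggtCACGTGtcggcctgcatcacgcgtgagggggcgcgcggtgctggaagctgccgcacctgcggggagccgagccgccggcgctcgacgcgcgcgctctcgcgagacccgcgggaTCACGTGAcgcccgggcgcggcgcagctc
GAA: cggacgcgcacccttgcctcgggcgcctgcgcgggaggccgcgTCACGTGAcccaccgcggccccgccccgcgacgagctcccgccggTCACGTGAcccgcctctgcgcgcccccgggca
MCOLN1: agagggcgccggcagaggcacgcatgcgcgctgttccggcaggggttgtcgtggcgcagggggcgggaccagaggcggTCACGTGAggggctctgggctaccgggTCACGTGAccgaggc
CTSA: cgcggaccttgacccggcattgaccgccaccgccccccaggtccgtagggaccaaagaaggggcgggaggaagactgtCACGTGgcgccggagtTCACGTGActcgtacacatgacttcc
ATP6V0D1: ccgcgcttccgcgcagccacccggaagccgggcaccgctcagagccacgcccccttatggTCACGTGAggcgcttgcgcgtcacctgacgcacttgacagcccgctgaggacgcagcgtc
ATG14: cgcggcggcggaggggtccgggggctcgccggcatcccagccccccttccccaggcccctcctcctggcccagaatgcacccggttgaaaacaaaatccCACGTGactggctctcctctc
RRAGC: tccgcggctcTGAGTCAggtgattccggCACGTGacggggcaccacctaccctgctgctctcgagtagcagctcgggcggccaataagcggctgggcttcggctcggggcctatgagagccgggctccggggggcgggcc
FNIP1: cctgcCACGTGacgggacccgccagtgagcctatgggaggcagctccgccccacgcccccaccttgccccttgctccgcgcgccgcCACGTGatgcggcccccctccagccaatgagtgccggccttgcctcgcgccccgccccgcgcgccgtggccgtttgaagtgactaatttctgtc
TFE3: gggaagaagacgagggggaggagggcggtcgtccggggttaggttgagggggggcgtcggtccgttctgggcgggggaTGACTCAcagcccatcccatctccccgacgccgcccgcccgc
GABARAPL1: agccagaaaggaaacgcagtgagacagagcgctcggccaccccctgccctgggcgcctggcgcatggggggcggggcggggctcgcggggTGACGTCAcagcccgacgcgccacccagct

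LAMP1, a major glycoprotein of the lysosomal membrane, held 5 E-boxes in its printed window (chr13:113297039-113297238, + strand), of which 1 was TCACGTGA. GAA, the acid alpha-glucosidase (chr17:80101461-80101580, +), and MCOLN1, the calcium channel TRPML1 (chr19:7522504-7522623, +), each held 2 copies of TCACGTGA. CTSA, a carboxypeptidase (chr20:45891215-45891334, +), held 1 copy and 1 further E-box, and ATP6V0D1, a V-ATPase subunit (chr16:67481158-67481277, -), held 1 copy. ATG14 (chr14:55411831-55411950, -) held 1 E-box and FNIP1 (chr5:131797018-131797197, -) held 2. RRAGC (chr1:38859773-38859912, -) held an E-box and the reverse complement of the AP-1 motif, TFE3 (chrX:49043358-49043477, -) held an AP-1 motif and GABARAPL1 (chr12:10212757-10212876, +) a CRE. Those coordinates are of GRCh38.p14, whereas the deposited counts use hg19.

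The 51 human libraries held 32425310 to 53172930 counts each, and mitochondrial genes took 0.190% to 5.66% of them. Summed CPM (counts relative to library size, after TMM scaling) of FOS, EGR1 and CXCL8, immediate response genes, was 11.2 to 21.9 in the DPBS libraries and 1199 to 6789 in those given ALT, WT ALT or Aeg-S/L. Epithelial markers summed to 3822 to 6971 CPM in NCI-H1437 and 4732 to 6674 in NCI-H292, and leukocyte markers to at most 1.47. Endothelial markers summed to at most 9.36 CPM in NCI-H1437 and to 51.3 to 76.5 in NCI-H292, where CDH5, VE-cadherin, held 50.7 to 75.1. Of the fibroblast markers COL3A1 and DCN were at 0 in NCI-H1437 and at most 0.0601 and 0.0957 CPM in NCI-H292, and COL1A1 made up most of a sum of 54.3 to 226 CPM in NCI-H1437. Fibroblast markers summed to 19.1 to 51.8 CPM in NCI-H292. H1437-1 DPBS replicate 1 stood apart from its group in several members, as did H1437-2 Aeg-S replicate 2. Calls of ALT against DPBS are given with and without the first. For the second, some changes with it as the only Aeg-S library are given below. The labels do not say what separated replicates, so p-values measure only the spread between these libraries.

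With DPBS, the levels of the members spanned a wide range when counts were taken per kilobase (FPKM). In NCI-H1437 CTSL, a cysteine protease, stood first at 508 ± 71.6 FPKM (SD over the 4 experiments' means), ahead of PSAP, the precursor of the saposins, at 143 ± 15.5. In NCI-H292 the order was PSAP, CD63, CTSZ, SQSTM1 and CTSD, with 165, 152, 149, 107 and 104 FPKM (means of 2 experiments), and CTSL stood at 37.9. TFEB was among the lowest, at 0.26 FPKM in NCI-H1437 and 0.63 in NCI-H292, as were ATG9B at 0.10 and 0.08 and RRAGD at 0.08 and 0.63. Differences between the lines are also differences between experiments, since each experiment held 1 line.

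In 5 of the 6 comparisons of a complete stimulus (ALT, WT ALT or Aeg-S/L) with DPBS members both rose and fell, and most changes were small. Stimulated libraries are those given one of these with no inhibitor or chelator. A gene was called when its p from edgeR's quasi-likelihood test, adjusted by Benjamini-Hochberg over all genes, was under 0.05. Of the 43 members 33 were called in at least 1 of the 6 comparisons: 21 only rose, 11 only fell, and SQSTM1 did both. Of the 82 calls 64 were changes within 2-fold. The 10 never called were HEXA, CTSL and CTSA, the calcium channel MCOLN1 and the chloride-proton exchanger CLCN7, the V-ATPase subunits ATP6V1H and ATP6V0D1, and ATG9B, BECN1 and RRAGD.

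ALT in H1437-1 raised 1 member, where 3.59% of all genes were called higher, and lowered 0, where 1.13% were called lower. There 8 of the 43 members had an unadjusted p under 0.05, as had 2831 of 16251 genes. DESeq2 called 2 members and 1394 of 16241 genes. Aeg-S/L in H1437-2 raised 3 (3.63% of all genes) and lowered 1 (3.10%). In H1437-3 Aeg-S/L raised 11 (15.4% of all genes) and lowered 6 (15.8%), and in H1437-4 WT ALT raised 16 (15.8%) and lowered 7 (17.1%). In H292-1 WT ALT raised 7 (11.6%) and lowered 8 (11.3%), and in H292-2 Aeg-S/L raised 14 (22.1%) and lowered 8 (21.1%). The members' median log2 change was 0.05, 0.19, 0.03, 0.14, -0.10 and 0.06 in that order, and that of all genes lay between -0.03 and 0.01.

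The split between higher and lower depended on the scaling. With counts scaled by library totals instead of TMM, the median of all genes moved to -0.13 in H292-1 and to -0.17 in H292-2. Members rising and falling became 2 and 2 in H1437-2, 9 and 12 in H1437-3, 9 and 10 in H1437-4, 5 and 9 in H292-1 and 7 and 20 in H292-2. In the same order, calls over all genes in either direction went from 1140, 5266, 5483, 3798 and 7081 to 1443, 5576, 5757, 3967 and 7208. Splits under total-count scaling are given here and below without the shares of all genes rising and falling. They show only how the split of members depended on scaling. Of the calls made, 12 of 17 in H1437-3, 12 of 23 in H1437-4, 8 of 15 in H292-1 and 15 of 22 in H292-2 were kept under every alternative run, leaving out each library included. All 4 calls in H1437-2 and the 1 in H1437-1 were lost when 1 library was left out.

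**Figure D1:**
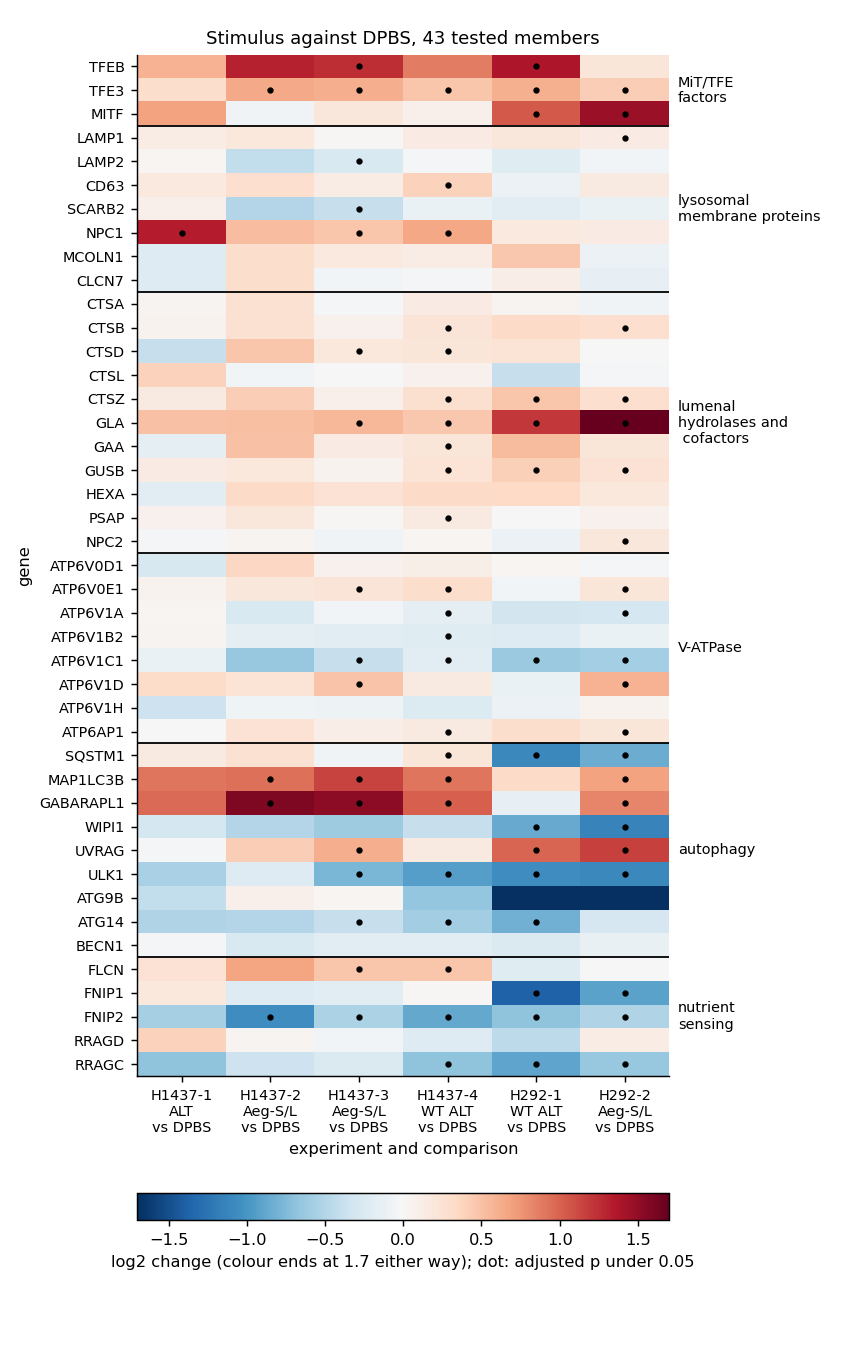
Log2 change of each of the 43 tested members (rows, by role) in the 6 comparisons of a complete stimulus with DPBS (columns), where red is higher and blue lower with the stimulus and a dot marks an adjusted p under 0.05. GLA, MAP1LC3B and GABARAPL1 were mostly red, ULK1, FNIP2 and RRAGC blue, and most hydrolases and V-ATPase subunits were pale. Under total-count scaling the changes of hydrolases, V-ATPase and membrane genes in H292-2 shifted to lower, with 3, 4 and 4 of them called lower.

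TFE3 (hg19 chrX:48886242-48901012, - strand) rose in 5 of the 6 comparisons. It stood at 88.3 and 89.1 CPM with DPBS and 136 and 137 with Aeg-S/L in H1437-3, a log2 change of 0.62 ± 0.06 (SE; adjusted p = 9.4e-07). In H292-2 it was 80.3 and 81.0 with DPBS against 108 and 107 CPM with Aeg-S/L (0.41 ± 0.07, adjusted p = 5.1e-05). Each stimulated library was above each DPBS library in both lines. It was 122 and 135 with WT ALT against 90.9 and 94.4 with DPBS in H1437-4 (0.48 ± 0.06) and 115 and 111 with WT ALT against 73.3 and 75.1 with DPBS in H292-1 (0.61 ± 0.11). In H1437-2 it was 92.4 and 84.0 with DPBS and 142 and 133 with Aeg-S/L (0.64 ± 0.17, adjusted p = 0.0459). That call was lost under 7 alternatives, among them total-count scaling and leaving out any library of the 2 groups, and the H292-1 call was lost without WT ALT replicate 1. In H1437-1, where TFE3 did not pass, ALT libraries held 99.4, 107 and 108 CPM and DPBS libraries 91.5, 76.5 and 87.7.

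MITF (chr3:69788586-70017488, +) rose in NCI-H292 and was not called in NCI-H1437. In H292-1 it stood at 24.2 and 22.5 CPM with DPBS and 49.3 and 47.2 with WT ALT (1.05 ± 0.13, adjusted p = 3.0e-04), and in H292-2 at 23.5 and 23.8 with DPBS and 66.9 and 63.6 with Aeg-S/L (1.46 ± 0.09, adjusted p = 1.4e-10). In both NCI-H292 experiments the groups were far apart, whereas in H1437-2 and H1437-4 they overlapped. In NCI-H1437 it was 36.5 and 45.9 with Aeg-S/L against 44.5 and 41.3 with DPBS in H1437-2 and 42.5 and 37.1 with Aeg-S/L against 36.4 and 33.6 with DPBS in H1437-3. In H1437-4 it was 35.1 and 39.9 with WT ALT against 34.5 and 36.3 with DPBS. In H1437-1 DPBS replicate 1 held 13.5 CPM, below replicates 2 and 3 at 27.1 and 30.1, and the ALT libraries held 35.1, 40.5 and 38.0.

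TFEB (chr6:41651716-41703997, -), the factor best known for driving lysosome genes, was scarce. In H1437-3 it stood at 1.15 and 2.16 CPM with DPBS and 4.42 and 3.54 with Aeg-S/L (1.26 ± 0.32, adjusted p = 0.00627), a call lost without Aeg-S/L replicate 1 or without DPBS replicate 1. In H292-1 it rose from 2.61 and 2.85 with DPBS to 6.99 and 7.20 with WT ALT (1.38 ± 0.25, adjusted p = 0.00315). In the other 4 comparisons it did not pass: the groups overlapped in H292-2, at 4.77 and 3.99 with DPBS and 5.48 and 4.58 with Aeg-S/L, and in H1437-4, touched in H1437-1, and stood apart in H1437-2 at 1.43 and 1.38 with DPBS and 2.97 and 3.98 with Aeg-S/L.

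Some lysosomal enzymes rose under TMM scaling, by small amounts apart from GLA. Of the 11 tested, 0, 0, 2, 7, 3 and 5 rose in H1437-1, H1437-2, H1437-3, H1437-4, H292-1 and H292-2, and 0 fell. DESeq2 size factors gave those same counts, and total-count scaling gave 0, 0, 1, 3, 1 and 1 rising, with 3 falling in H292-2. Of all genes under TMM, in that order, 3.59%, 3.63%, 15.4%, 15.8%, 11.6% and 22.1% rose. Those falling were 1.13%, 3.10%, 15.8%, 17.1%, 11.3% and 21.1%. With so few genes per role, counts near these shares are not results about a role. GLA, the alpha-galactosidase A that is missing in Fabry disease (chrX:100652791-100662913, -), stood at 36.7 and 38.8 CPM with DPBS and 126 and 123 with Aeg-S/L in H292-2, a log2 change of 1.72 ± 0.09 (adjusted p = 6.8e-12). In H292-1 it was 47.9 and 45.7 with DPBS and 104 and 111 with WT ALT (1.20 ± 0.13, adjusted p = 1.9e-04). All stimulated libraries of that line were at least 2-fold above its DPBS libraries.

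In NCI-H1437 GLA started higher and rose less. It was 155 and 157 CPM with DPBS and 225 and 236 with Aeg-S/L in H1437-3 (0.56 ± 0.06, adjusted p = 1.4e-06). In H1437-4 it was 157 and 156 with DPBS and 206 and 223 with WT ALT (0.45 ± 0.06, adjusted p = 1.1e-05). Groups stood apart in both, and also in H1437-2, where GLA did not pass (136 and 138 with DPBS against 195 and 196 with Aeg-S/L, 0.52 ± 0.16). In H1437-1 GLA was 212, 154 and 130.2 with DPBS and 223, 235 and 244 with ALT, and it did not pass. The other enzymes called had log2 changes of 0.15 to 0.47. CTSZ, a carboxypeptidase, rose by 0.27, 0.47 and 0.29 in H1437-4, H292-1 and H292-2, and GUSB, beta-glucuronidase, by 0.23, 0.41 and 0.25. CTSB, a cysteine protease, rose in H1437-4 and H292-2 (log2 0.22 and 0.29) and CTSD, an aspartic protease, in H1437-3 and H1437-4 (0.18 and 0.20). GAA (0.20) and PSAP (0.15) rose in H1437-4, and NPC2, which carries cholesterol out of the lumen, in H292-2 (0.19). For CTSD 41.3% of exonic bases lay in other genes as well, so that its counts are uncertain.

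Of the 7 membrane genes NPC1, the cholesterol transporter mutated in Niemann-Pick disease type C (chr18:21086148-21166862, -), was called most often, in 3 comparisons of NCI-H1437. In H1437-1 it stood at 36.5, 55.1 and 67.0 CPM with DPBS and 129, 134 and 138 with ALT (1.34 ± 0.24, adjusted p = 0.00914), with no overlap. That was the only member called there, and its call was lost without ALT replicate 3. In H1437-3 it was 72.8 and 81.3 with DPBS against 105 and 109 with Aeg-S/L (0.47 ± 0.07, adjusted p = 4.9e-05), and in H1437-4 78.3 and 75 with DPBS against 114 and 128 with WT ALT (0.66 ± 0.07, adjusted p = 2.7e-06). In H1437-2 it was 84.2 and 86.0 with DPBS and 123 and 122 with Aeg-S/L and did not pass. In NCI-H292 its levels were 29.4 and 31.8 with DPBS and 34.3 and 34.4 with WT ALT in H292-1, and 35.1 and 35.5 with DPBS and 38.5 and 38.9 with Aeg-S/L in H292-2, and it did not pass. CD63, a tetraspanin, rose in H1437-4 (0.39) and LAMP1 in H292-2 (0.14). SCARB2, the receptor that brings beta-glucocerebrosidase to lysosomes, fell by 0.39 and LAMP2, a glycoprotein needed for lysosome fusion, by 0.26 on the log2 scale in H1437-3. The LAMP1 value became -0.02 under total-count scaling, and 4 membrane genes were then called lower in H292-2.

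V-ATPase genes, whose products acidify the lysosome, went in both directions by small amounts. Of the 8, 0, 0, 2, 2, 0 and 3 rose in H1437-1, H1437-2, H1437-3, H1437-4, H292-1 and H292-2, and 0, 0, 1, 3, 1 and 2 fell. Under total-count scaling 0, 0, 1, 1, 0 and 1 rose and 0, 1, 2, 4, 2 and 4 fell. Shares of all genes rising under TMM were, in the same order, 3.59%, 3.63%, 15.4%, 15.8%, 11.6% and 22.1%. Those falling were 1.13%, 3.10%, 15.8%, 17.1%, 11.3% and 21.1%. ATP6V1C1, a subunit of the catalytic part, fell in 4 comparisons. It was 86.9 and 85.9 CPM with DPBS and 52.8 and 58.4 with WT ALT in H292-1 (-0.63 ± 0.12, adjusted p = 0.00345), and 91.8 and 87.4 with DPBS and 60.8 and 59.6 with Aeg-S/L in H292-2 (-0.57 ± 0.07, adjusted p = 2.1e-06). In H1437-3 it was 82.6 and 84.8 with DPBS and 65.7 and 61.3 with Aeg-S/L (-0.40 ± 0.07), and in H1437-4 86.4 and 86.5 with DPBS and 75.1 and 76.1 with WT ALT (-0.19 ± 0.06). Stimulated libraries were below DPBS libraries in all 4, as in H1437-2 at 64.1 and 66.1 with Aeg-S/L against 98.4 and 105 with DPBS, where it did not pass. The H1437-4 call was lost without either DPBS library and the H292-1 call without WT ALT replicate 1. ATP6V1D, another subunit of that part, rose in H1437-3 and H292-2 (log2 0.49 and 0.59), and ATP6V0E1 of the membrane part in H1437-3, H1437-4 and H292-2 (0.22, 0.30 and 0.21).

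Among the 9 autophagy genes the 2 encoding proteins of the Atg8 family, which are attached to the lipid of the autophagosome membrane, rose, as did UVRAG. ULK1 and ATG14 fell, and WIPI1 fell in NCI-H292. SQSTM1 went both ways, and ATG9B and BECN1 were not called in any comparison of a complete stimulus with DPBS. GABARAPL1 (chr12:10365057-10375727, +) rose in 4 comparisons and MAP1LC3B (chr16:87417601-87438385, +), the source of the widely used marker LC3B, in the same 4. In H1437-3 GABARAPL1 stood at 25.7 and 23.4 CPM with DPBS and 68.4 and 72.0 with Aeg-S/L (1.52 ± 0.10, adjusted p = 4.4e-09), and in H1437-4 at 24.3 and 21.6 with DPBS and 41.9 and 51.5 with WT ALT (1.02 ± 0.11, adjusted p = 1.8e-06). In H1437-2 it was 18.0 and 15.2 with DPBS and 51.6 and 48.2 with Aeg-S/L (1.59 ± 0.32, adjusted p = 0.0113). In these 3 experiments each stimulated library lay well above each DPBS library. In NCI-H292 it rose with Aeg-S/L, from 56.1 and 57.2 with DPBS to 101 and 100.4 with Aeg-S/L (0.83 ± 0.07), and not with WT ALT, where 67.1 and 67.5 CPM lay between the DPBS libraries at 87.0 and 61.0. In H1437-1 it did not pass at 25.8, 23.6 and 17.1 with DPBS and 36.1, 49.0 and 44.6 with ALT, although the groups did not overlap.

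MAP1LC3B showed a like order of groups. It was 57.7 and 53.0 CPM with DPBS and 122 and 123 with Aeg-S/L in H1437-3 (1.15 ± 0.08, adjusted p = 1.5e-08), and 132 and 120.2 with DPBS and 198 and 207 with Aeg-S/L in H292-2 (0.68 ± 0.06, adjusted p = 3.8e-08). In H1437-4 it was 59.0 and 53.9 with DPBS and 102 and 110.5 with WT ALT (0.91 ± 0.07), and in H1437-2 58.5 and 60.4 with DPBS and 106 and 121 with Aeg-S/L (0.93 ± 0.20). No stimulated library fell within its DPBS group in any of the 6 experiments, including H1437-1 (53.9, 51.2 and 58.7 with DPBS against 93.9, 110.0 and 103 with ALT, adjusted p = 0.0628) and H292-1 (123 and 132 with DPBS against 161 and 159 with WT ALT, adjusted p = 0.0614). Near-identical gene copies exist for both Atg8 genes and GABARAPL1 shares 8.1% of its exonic bases with other genes, so how the authors' counting split such reads is uncertain.

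ULK1, the kinase that starts autophagy (chr12:132379196-132407712, +), fell in 4 comparisons. It was 115 and 94.8 CPM with DPBS and 50.3 and 47.6 with Aeg-S/L in H292-2 (-1.10 ± 0.12, adjusted p = 5.8e-07), and 83.4 and 92.5 with DPBS and 44.5 and 40.4 with WT ALT in H292-1 (-1.05 ± 0.20, adjusted p = 0.00427). In H1437-3 it was 64.7 and 73.2 with DPBS and 37.7 and 42.6 with Aeg-S/L (-0.78 ± 0.10), and in H1437-4 63.1 and 79.9 with DPBS and 37.0 and 37.4 with WT ALT (-0.94 ± 0.10). All stimulated libraries lay below all DPBS libraries in these 4 experiments. ULK1 did not pass in H1437-1 (59.1, 64.0 and 87.9 with DPBS against 45.4, 48.9 and 49.6 with ALT) or H1437-2 (65.8 and 67.6 with DPBS against 55.3 and 58.8 with Aeg-S/L). The H292-1 call was lost without WT ALT replicate 2.

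ATG14, which directs the lipid kinase VPS34 to sites of autophagosome formation, fell in 3 comparisons. In H1437-3 it was 65.2 and 68.2 CPM with DPBS and 52.7 and 48.6 with Aeg-S/L (-0.40 ± 0.07), in H1437-4 65.5 and 70.6 with DPBS and 42.1 and 47.8 with WT ALT (-0.60 ± 0.09), and in H292-1 27.2 and 27.6 with DPBS and 14.5 and 16.5 with WT ALT (-0.82 ± 0.13, adjusted p = 0.00149). In those experiments the stimulated and DPBS libraries did not overlap. In H292-2 ATG14 was 28.4 and 27.8 with DPBS and 25 and 21.3 with Aeg-S/L and in H1437-2 70.0 and 76.2 with DPBS and 49.9 and 53.5 with Aeg-S/L, and it did not pass. In H1437-1 it was 45.8, 77.6 and 76.5 with DPBS and 48.9, 49.2 and 42.4 with ALT, where DPBS replicate 1 fell within the ALT range. WIPI1, a lipid-binding protein of the early autophagosome, fell in NCI-H292 by 0.86 and 1.14 on the log2 scale (H292-1 and H292-2), and the first call was lost without any 1 of 3 libraries. For WIPI1 28.1% of exonic bases lay in other genes as well, so that its counts are uncertain. UVRAG, which shares VPS34 with ATG14 in a complex of its own (chr11:75526212-75854239, +), rose in 3. It was 20.9 and 22.7 with DPBS and 41.3 and 45.2 with WT ALT in H292-1 (0.99 ± 0.13), 22.5 and 21.3 with DPBS and 51.1 and 46.9 with Aeg-S/L in H292-2 (1.16 ± 0.09), and 31.9 and 32 with DPBS and 50.0 and 48.4 with Aeg-S/L in H1437-3 (0.62 ± 0.08). Each stimulated library was above each DPBS library in these 3 experiments. UVRAG did not pass at 39.9 and 36.6 with DPBS and 51.5 and 51.1 with Aeg-S/L in H1437-2, 33.6 and 33.7 with DPBS and 38.5 and 36.2 with WT ALT in H1437-4 or 20.9, 38.0 and 41.7 with DPBS and 34.5, 31.6 and 32 with ALT in H1437-1.

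SQSTM1, the cargo receptor p62 that is itself degraded by autophagy (chr5:179233388-179265078, +), was the member called in both directions. In H292-1 it fell from 824 and 814 with DPBS to 391 and 379 CPM with WT ALT (-1.09 ± 0.15, adjusted p = 8.0e-04), and in H292-2 from 833 and 812 with DPBS to 456 and 457 with Aeg-S/L (-0.85 ± 0.05, adjusted p = 1.2e-10). In H1437-4 it rose from 1048 and 1019 with DPBS to 1101 and 1275 with WT ALT (0.20 ± 0.06, adjusted p = 0.0144), a call lost under total-count scaling. In H1437-3 the libraries held 1059.7 and 1022 with DPBS and 985 and 1011 with Aeg-S/L, which did not pass. Nor did 891, 882 and 809.7 with DPBS and 1011, 923 and 939 with ALT in H1437-1 or 833 and 786 with DPBS and 1012 and 929 with Aeg-S/L in H1437-2. For SQSTM1 22.0% of exonic bases were shared with other genes. ATG9B, a lipid scramblase, had only 11 and 19 counts with DPBS, 2 and 3 with Aeg-S/L and 2 and 0 with Aeg-S/L+EGTA in H292-2, and of its fitted changes only the last passed against DPBS. Of the 9 autophagy genes 3 rose and 2 fell in H1437-3 and H1437-4 (all genes: 15.4% and 15.8%, and 15.8% and 17.1%). In H292-1 1 rose and 4 fell (11.6% and 11.3%), and in H292-2 3 rose and 3 fell (22.1% and 21.1%). Under total-count scaling more fell than rose in all 4 experiments (3 and 5, 2 and 3, 1 and 4, and 3 and 6).

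Of the 5 nutrient-sensing genes 0, 0, 1, 1, 0 and 0 rose and 0, 1, 1, 2, 3 and 3 fell in H1437-1, H1437-2, H1437-3, H1437-4, H292-1 and H292-2 (0, 0, 1, 0, 0 and 0, and 0, 1, 3, 2, 3 and 3, under total-count scaling). Shares of all genes rising under TMM were, in the same order, 3.59%, 3.63%, 15.4%, 15.8%, 11.6% and 22.1%. Those falling were 1.13%, 3.10%, 15.8%, 17.1%, 11.3% and 21.1%. FNIP2, a partner of folliculin (chr4:159690290-159829201, +), fell in 5 of the 6 comparisons. It was 19.3 and 16.4 CPM with DPBS and 8.88 and 10.6 with WT ALT in H1437-4 (-0.88 ± 0.12, adjusted p = 4.8e-05), and 20.8 and 21.0 with DPBS and 9.67 and 10.4 with Aeg-S/L in H1437-2 (-1.06 ± 0.24, adjusted p = 0.0247). In H1437-3 it was 16.4 and 15.6 with DPBS and 9.72 and 12.3 with Aeg-S/L (-0.54 ± 0.14), in H292-1 10.7 and 10.0 with DPBS and 5.58 and 7.32 with WT ALT (-0.69 ± 0.19), and in H292-2 10.1 and 10.9 with DPBS and 7.15 and 7.51 with Aeg-S/L (-0.52 ± 0.14). Groups stood apart in all 5, and the calls in H1437-2 and H292-1 were lost without any 1 library and that in H1437-3 without Aeg-S/L replicate 1. In H1437-1 DPBS replicate 1 held 4.83 CPM, replicates 2 and 3 held 18.6 and 20.7, and the ALT libraries 9.86, 9.83 and 10.1. Without that DPBS library ALT lowered FNIP2 (log2 -1.0), RRAGC (-0.83), ATG14 (-0.73) and ULK1 (-0.68) and raised NPC1 (1.11) and GLA (0.70). These were 6 calls in place of 1. The share of all genes called in that fit is not given here, so the number of calls cannot be set against it.

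FNIP1, the other folliculin partner (chr5:130977407-131132710, -), fell in NCI-H292. It was 66.4 and 68.6 CPM with DPBS and 26.4 and 25.9 with WT ALT (-1.37 ± 0.12, adjusted p = 3.4e-05), and 75.7 and 73.0 with DPBS and 40.0 and 38.9 with Aeg-S/L (-0.91 ± 0.07, adjusted p = 4.2e-09). In NCI-H1437 it did not pass, at 27.6 and 29.0 with DPBS and 26.7 and 23.1 with Aeg-S/L in H1437-3. RRAGC, 1 of the Rag GTPases that hold mTORC1 on the lysosome (chr1:39303870-39325495, -), fell in 3: from 17.1 and 15.2 with DPBS to 9.99 and 10.2 with WT ALT in H1437-4 (-0.68 ± 0.12), from 74.6 and 64.9 with DPBS to 35.2 and 39.7 with WT ALT in H292-1 (-0.90 ± 0.12), and from 72.1 and 64.1 with DPBS to 41.4 and 45.3 with Aeg-S/L in H292-2 (-0.65 ± 0.08). No stimulated library of these experiments reached a DPBS library. RRAGC did not pass at 13.5, 16.4 and 20.0 with DPBS and 10.2, 9.38 and 11.4 with ALT in H1437-1, 15.5 and 17.2 with DPBS and 12.4 and 13.2 with Aeg-S/L in H1437-2 or 15.1 and 14.0 with DPBS and 12.9 and 11.7 with Aeg-S/L in H1437-3, although each stimulated library was again the lower. FLCN, folliculin itself, rose in H1437-3 and H1437-4 (log2 0.47 ± 0.13 and 0.47 ± 0.17) and was -0.20 and -0.01 in NCI-H292 without passing.

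**Figure D2:**
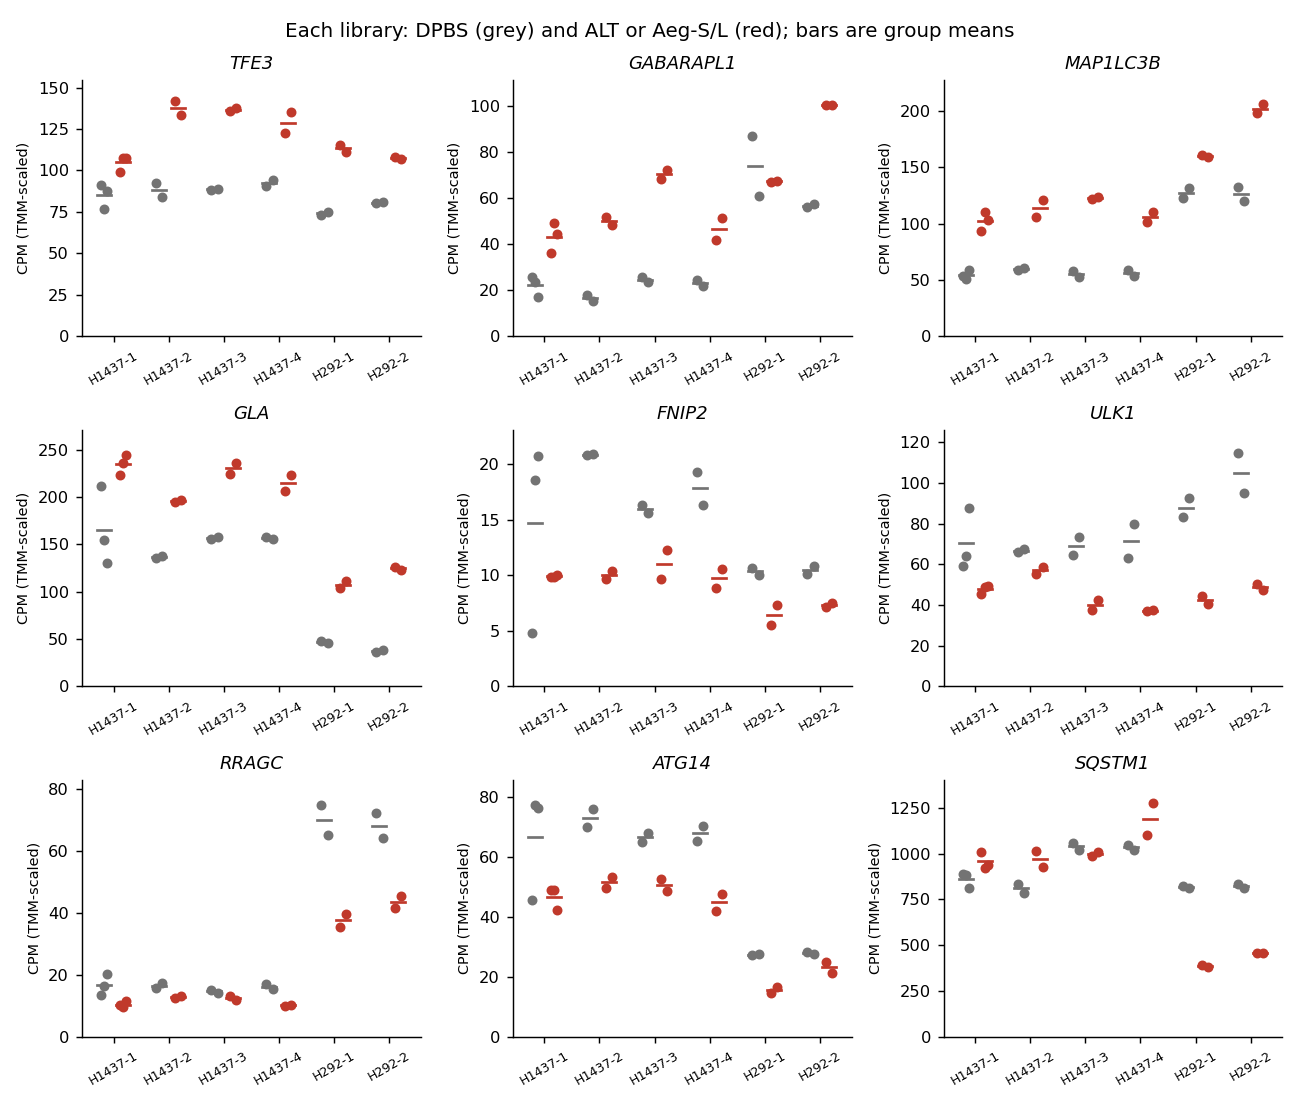
CPM (y axes, from 0) of 9 members in every DPBS library (grey) and every library given ALT, WT ALT or Aeg-S/L (red), by experiment (x axes), with bars at the group means. Red points lie above grey for TFE3 and MAP1LC3B in every experiment and below grey for ULK1, and FNIP2 of H1437-1 shows the DPBS library at 4.83 CPM below the others.

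Genes with and without an E-box in the window both rose and fell. Of the 5 genes whose windows held TCACGTGA, 0, 0, 0, 1, 0 and 1 rose in the 6 comparisons and 0 fell, with medians of -0.15, 0.30, 0.08, 0.14, 0.19 and -0.02. Of the 11 tested genes with an E-box 0, 0, 1, 3, 0 and 1 rose and 0, 0, 1, 2, 3 and 2 fell, and ATG14, RRAGC and FNIP1, printed above, were among those that fell. Of the 21 tested genes with a window and no E-box 1, 3, 8, 10, 6 and 10 rose and 0, 1, 3, 2, 4 and 4 fell. Shares of all genes rising were, in the same order, 3.59%, 3.63%, 15.4%, 15.8%, 11.6% and 22.1%. Those falling were 1.13%, 3.10%, 15.8%, 17.1%, 11.3% and 21.1%.

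The question of whether a single subunit or an extract lacking one changes these genes was addressed in H1437-2, H1437-4 and H292-1. In H1437-2 Aeg-S alone and Aeg-L alone each changed 0 members by edgeR, where 0% of all genes were called in each direction. An unadjusted p under 0.05 was reached by 6 and 0 members and by 1491 and 186 of 16962 genes. DESeq2 called 0 and 0 members and 3 and 0 genes. GABARAPL1 was 18.7 and 7.80 CPM with Aeg-S and 22.9 and 18.4 with Aeg-L, against 51.6 and 48.2 with both. TFE3 was 79.8 and 90.4 with Aeg-S and 83.4 and 103 with Aeg-L, against 142 and 133 with Aeg-S/L. All single-subunit libraries were below both Aeg-S/L libraries for these genes. For FNIP2 the order was the other way, at 21.9 and 32.3 with Aeg-S and 24.8 and 18.2 with Aeg-L. With Aeg-S/L it was 9.67 and 10.4. GABARAPL1 and FNIP2 were named for calls against DPBS that include these Aeg-S/L libraries, and the choice favoured such orders.

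The change with Aeg-S/L was set against the sum of the changes with each subunit alone, and FNIP2 was the 1 member that differed, being lower by 1.47 ± 0.34 on the log2 scale (0 higher, where 1.66% of all genes were, and 1 lower, where 0.867% were). This count depended on single libraries, and it rose or fell in fits that left a group with 1 library. Aeg-S replicate 2 had 5.66% mitochondrial counts and hydrolase counts summing to 1106 CPM, against 2208 in replicate 1. When it stood alone for Aeg-S, the log2 changes from DPBS of CTSL, PSAP and LAMP1 were -1.46, -1.17 and -1.03. That of MITF was 0.98. With 1 library no spread within Aeg-S could be measured. The part of that library in these values was not tested further.

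The KO extracts changed few members. In H1437-4 aegs KO ALT and aegl KO ALT raised 0 members (0.138% and 0.168% of all genes) and lowered 1 each (0.945% and 0.598%). That gene was ULK1, at 46.7 and 53.2 CPM with aegs KO ALT and 48.7 and 45.9 with aegl KO ALT against 63.1 and 79.9 with DPBS (-0.52 ± 0.10 and -0.59 ± 0.10). Both ULK1 calls were lost on leaving out 1 library. In H292-1 aegs KO ALT changed 0 members by edgeR and 0 by DESeq2 (0% of all genes higher and 0% lower by edgeR). DESeq2 called 1 of 16613 genes, and 0 members and 308 genes had an unadjusted p under 0.05. In the same experiment aegl KO ALT changed 0 members by edgeR and 1 by DESeq2 (0.0963% of all genes higher and 0.0241% lower by edgeR). DESeq2 called 280 of 12426 genes. An unadjusted p under 0.05 was reached by 10 members and 2239 of 16613 genes. There GABARAPL1 was 38.8 and 40.9 CPM with aegl KO ALT and 81.2 and 54.9 with aegs KO ALT, against 87.0 and 61.0 with DPBS, and its change of -0.89 ± 0.20 with aegl KO ALT did not pass (adjusted p = 0.177).

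Against WT ALT, which shares its libraries with the comparison to DPBS, both KO extracts differed in many members. In H1437-4 aegs KO ALT gave 6 higher (15.7% of all genes) and 16 lower (14.2%), and aegl KO ALT 7 higher (16.2%) and 18 lower (14.5%). In H292-1 aegs KO ALT gave 8 higher (13.2%) and 10 lower (13.4%), and aegl KO ALT 7 higher (9.85%) and 9 lower (9.13%). Under total-count scaling calls over all genes, in that order, went from 5002, 5120, 4413 and 3153 to 5423, 5451, 4550 and 3347. The splits of members were then 10 and 8, 11 and 12, 12 and 7, and 7 and 7. Without 1 library the counts ranged from 11 to 21, 9 to 24, 9 to 20, and 6 to 14.

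Several genes raised by WT ALT were lower with the KO extracts. In H1437-4 GABARAPL1 was 20.0 and 21.0 CPM with aegs KO ALT and 18.0 and 19.0 with aegl KO ALT, against 41.9 and 51.5 with WT ALT (-1.19 ± 0.11 and -1.34 ± 0.11). MAP1LC3B was 60.3 and 56.0 with aegs KO ALT and 55.7 and 54.8 with aegl KO ALT, against 102 and 110.5 with WT ALT (-0.87 ± 0.07 and -0.94 ± 0.07). NPC1 was 71.9 and 70.0 with aegs KO ALT and 80.5 and 73.1 with aegl KO ALT, against 114 and 128 with WT ALT (-0.77 ± 0.07 and -0.66 ± 0.07). For these 3 genes every KO library lay below every WT ALT library and close to the DPBS libraries. FNIP2 was higher with the KO extracts, at 19.0 and 20.2 with aegs KO ALT and 17.8 and 17.7 with aegl KO ALT against 8.88 and 10.6 with WT ALT (1.01 ± 0.12 and 0.87 ± 0.13). The calls of ATG14, FNIP2, GABARAPL1, GLA, MAP1LC3B, NPC1, RRAGC and TFE3 against WT ALT were kept under every alternative for both KO extracts.

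In H292-1 GLA was 50.7 and 40.2 CPM with aegs KO ALT and 32.6 and 35.1 with aegl KO ALT, against 104 and 111 with WT ALT (-1.24 ± 0.13 and -1.66 ± 0.14). MITF was 23.9 and 22.5 with aegs KO ALT and 20.4 and 22.7 with aegl KO ALT, against 49.3 and 47.2 with WT ALT (-1.06 ± 0.13 and -1.16 ± 0.13). MITF was thus near its DPBS level and GLA near or below it. FNIP1 was higher than with WT ALT, at 70.1 and 74.5 with aegs KO ALT and 52.2 and 59.8 with aegl KO ALT against 26.4 and 25.9 with WT ALT (1.47 ± 0.12 and 1.10 ± 0.12). SQSTM1 was 784 and 823 with aegs KO ALT and 1099.8 and 797 with aegl KO ALT, against 391 and 379 with WT ALT (1.06 ± 0.15 and 1.30 ± 0.16). Of the 3 transcription factors TFE3 and MITF were lower with the KO extracts than with WT ALT in H292-1 together with TFEB, and 2 of the 3 were lower in each comparison of H1437-4.

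**Figure D3:**
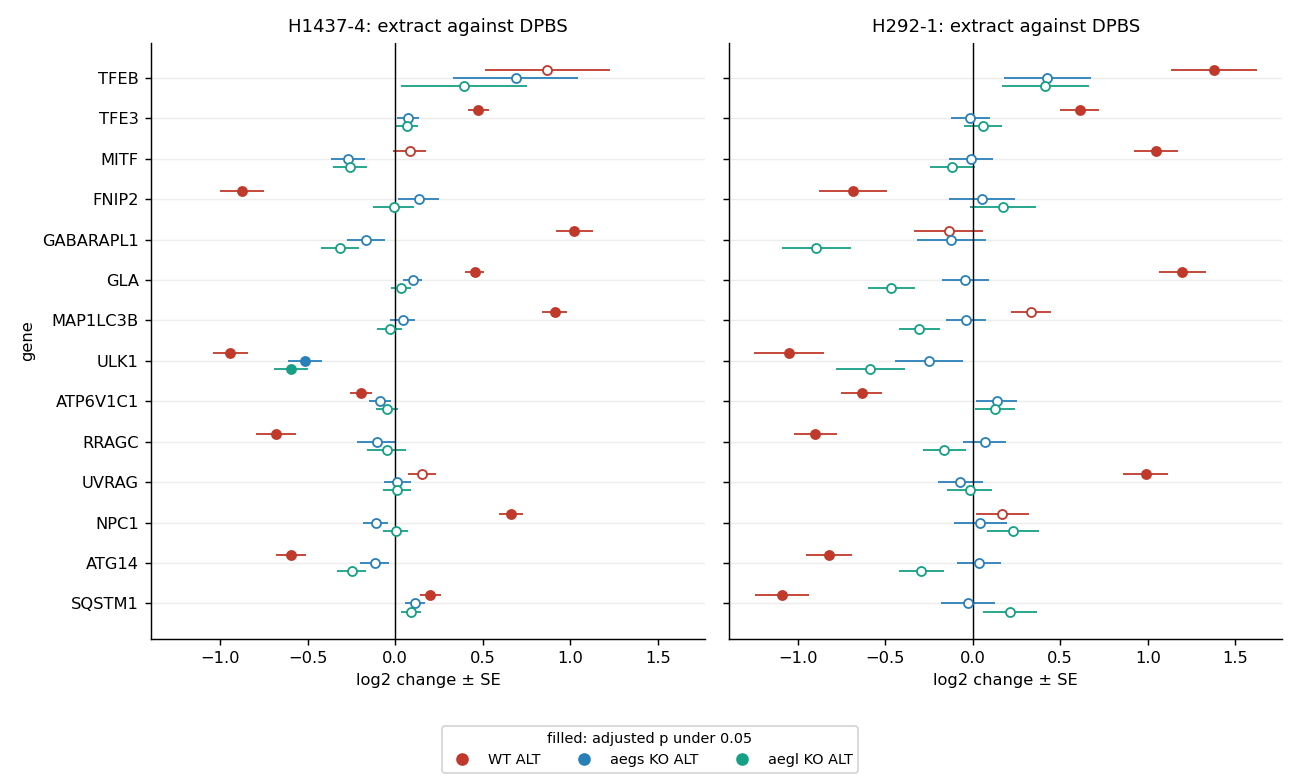
Log2 change from DPBS with SE for members in H1437-4 and H292-1 given WT ALT, aegs KO ALT or aegl KO ALT, all sharing the DPBS libraries of their experiment. Filled points passed against DPBS: ULK1 in H1437-4 is the only member filled with a KO extract, and GABARAPL1 with aegl KO ALT in H292-1 (-0.89) is an open point.

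Tra was given together with a stimulus in 2 experiments of NCI-H1437. Against ALT alone, ALT+Tra raised 2 members (1.33% of all genes) and lowered 0 (3.75%). An unadjusted p under 0.05 was reached by 10 members and 3400 of 16251 genes, and DESeq2 called 5 members and 1593 of 16241 genes. RRAGC was 10.2, 9.38 and 11.4 CPM with ALT and 24.6, 30.6 and 21.4 with ALT+Tra (1.31 ± 0.22, adjusted p = 0.00624), and ULK1 45.4, 48.9 and 49.6 with ALT and 99.3, 91.7 and 92.9 with ALT+Tra (0.98 ± 0.19, adjusted p = 0.016). Groups did not overlap for either gene, and with DPBS RRAGC was 13.5, 16.4 and 20.0 and ULK1 59.1, 64.0 and 87.9. The RRAGC call was lost without ALT replicate 2 and the ULK1 call without any 1 of 4 libraries. ALT+Tra differed from DPBS in 0 members by edgeR and 1 by DESeq2 (0.123% of all genes higher and 0.160% lower by edgeR). DESeq2 called 408 of 16241 genes, and 6 members and 2492 of 16251 genes had an unadjusted p under 0.05. Summed hydrolase counts were 3106, 2369 and 1258 CPM in ALT+Tra replicates 1, 2 and 3, so that replicate 3 stood below the rest. Fits leaving out each library in turn, replicate 3 included, called 0 to 3 members against ALT and 0 against DPBS. The shares of all genes called in those fits are not given here. Why replicate 3 was lower was not tested.

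In H1437-2 Aeg-S/L+Tra differed from Aeg-S/L in 0 members by edgeR and 0 by DESeq2 (0.124% of all genes higher and 1.15% lower by edgeR). DESeq2 called 424 of 14988 genes, and 7 members and 1561 of 16962 genes had an unadjusted p under 0.05. Against DPBS Aeg-S/L+Tra also changed 0 members by edgeR and 0 by DESeq2 (0.478% of all genes higher and 0.0177% lower by edgeR). DESeq2 called 168 of 13673 genes, and 3 members and 1508 of 16962 genes had an unadjusted p under 0.05. GABARAPL1 was 30.8 and 36.3 CPM with Aeg-S/L+Tra and 51.6 and 48.2 with Aeg-S/L (-0.57 ± 0.31, adjusted p = 0.639). TFE3 was 99.9 and 111 with Aeg-S/L+Tra and 142 and 133 with Aeg-S/L (-0.39 ± 0.17, adjusted p = 0.519). For both genes the Aeg-S/L+Tra libraries lay between those of DPBS and Aeg-S/L, and the difference did not pass.

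Chelators, added with Aeg-S/L in H1437-3 and H292-2, changed many members, and BAPTA-AM and EGTA moved several in opposite directions. Against Aeg-S/L alone BAPTA-AM gave 3 higher (11.6% of all genes) and 16 lower (16.1%) in H1437-3, and 1 higher (17.6%) and 18 lower (20.3%) in H292-2. EGTA gave 11 higher (15.8%) and 14 lower (14.8%) in H1437-3, and 10 higher (23.2%) and 21 lower (21.7%) in H292-2. Under total-count scaling, in that order, the splits were 11 and 14, 8 and 9, 11 and 8, and 11 and 18, and the median of all genes moved to 0.14 and 0.20 for BAPTA-AM in H1437-3 and H292-2 and to 0.13 for EGTA in H292-2. Over all genes, calls in either direction went from 4677 to 5894 and from 6210 to 7445 with BAPTA-AM in H1437-3 and H292-2. With EGTA they went from 5172 to 5102 and from 7360 to 7356. Of the calls of members, 15 of 19, 9 of 19, 14 of 25 and 25 of 31 were kept under every alternative.

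Several genes raised by Aeg-S/L were lower with either chelator. GABARAPL1, MAP1LC3B and GLA were named for calls against DPBS that use the same Aeg-S/L libraries. The choice therefore favoured a change the other way from those libraries. GABARAPL1 in H1437-3 was 68.4 and 72.0 CPM with Aeg-S/L, 16.9 and 13.9 with BAPTA-AM added (-2.19 ± 0.10, adjusted p = 4.7e-11) and 31.9 and 30.7 with EGTA added (-1.16 ± 0.09, adjusted p = 1.5e-07). In H292-2 it was 101 and 100.4 with Aeg-S/L, 37.3 and 35.8 with Aeg-S/L+BAPTA-AM (-1.46 ± 0.07) and 42.6 and 45.6 with Aeg-S/L+EGTA (-1.19 ± 0.07). In both lines the BAPTA-AM libraries were also below the DPBS libraries (25.7 and 23.4 in H1437-3, 56.1 and 57.2 in H292-2). MAP1LC3B was 122 and 123 with Aeg-S/L, 47.8 and 41.1 with Aeg-S/L+BAPTA-AM (-1.46 ± 0.08) and 69.9 and 64.5 with Aeg-S/L+EGTA (-0.87 ± 0.08) in H1437-3. In H292-2 it was 198 and 207 with Aeg-S/L, 79.8 and 79.1 with Aeg-S/L+BAPTA-AM (-1.35 ± 0.06) and 126 and 118 with Aeg-S/L+EGTA (-0.73 ± 0.06), so that with BAPTA-AM it was again below DPBS in both lines.

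GLA in H292-2 was 126 and 123 CPM with Aeg-S/L, 35.2 and 37.5 with BAPTA-AM (-1.78 ± 0.09, adjusted p = 3.4e-12) and 28.7 and 35.4 with EGTA (-1.96 ± 0.09, adjusted p = 1.9e-12). The chelator libraries lay near or below the DPBS libraries of 36.7 and 38.8. In H1437-3 GLA was 225 and 236 with Aeg-S/L, 154 and 148 with Aeg-S/L+BAPTA-AM (-0.61 ± 0.06) and 153 and 149 with Aeg-S/L+EGTA (-0.61 ± 0.06), again just below the DPBS libraries. MITF fell with BAPTA-AM in both lines, to 23.4 and 23.6 with Aeg-S/L+BAPTA-AM in H1437-3 (-0.76 ± 0.09) and 26.2 and 24.3 with Aeg-S/L+BAPTA-AM in H292-2 (-1.37 ± 0.09). With EGTA it was higher in H1437-3, at 49.6 and 52.3 with Aeg-S/L+EGTA (0.36 ± 0.09), and lower in H292-2, at 38.6 and 44.5 with Aeg-S/L+EGTA (-0.65 ± 0.09). TFEB was lower with EGTA in H1437-3 (1.78 and 1.97 with Aeg-S/L+EGTA against 4.42 and 3.54 with Aeg-S/L, -1.09 ± 0.32). TFE3 was lower with either chelator, with log2 changes of -0.48 with BAPTA-AM and -0.41 with EGTA in H1437-3 and -0.30 and -0.19 in H292-2. Both TFE3 calls in H1437-3 were kept under every alternative, and both in H292-2 were lost under total-count scaling.

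Nutrient-sensing genes were mostly lower with BAPTA-AM and higher with EGTA. FNIP1 in H1437-3 was 26.7 and 23.1 CPM with Aeg-S/L, 11.3 and 9.64 with BAPTA-AM (-1.26 ± 0.11, adjusted p = 1.4e-07) and 52.4 and 50.1 with EGTA (1.04 ± 0.10, adjusted p = 1.0e-06). In H292-2 it was 40.0 and 38.9 with Aeg-S/L, 23.9 and 23.8 with Aeg-S/L+BAPTA-AM (-0.73 ± 0.08) and 112 and 119 with Aeg-S/L+EGTA (1.55 ± 0.07). With EGTA FNIP1 stood above DPBS (27.6 and 29.0 in H1437-3, 75.7 and 73.0 in H292-2) and with BAPTA-AM below it in both lines. FLCN was 6.87 and 6.23 with BAPTA-AM and 15.5 and 14.5 with EGTA in H1437-3, and 14.4 and 10.8 with Aeg-S/L+BAPTA-AM and 40.6 and 36.6 with Aeg-S/L+EGTA in H292-2. RRAGC was 7.64 and 6.71 with Aeg-S/L+BAPTA-AM and 17 and 18.2 with Aeg-S/L+EGTA in H1437-3, and 37.1 and 33.4 with Aeg-S/L+BAPTA-AM and 72.2 and 74.8 with Aeg-S/L+EGTA in H292-2. No BAPTA-AM library of these genes reached the lowest EGTA library of its experiment. Of the 5 nutrient-sensing genes 0 rose and 4 fell with BAPTA-AM in H1437-3 (11.6% and 16.1% of all genes). In H292-2 0 rose and 3 fell with BAPTA-AM (17.6% and 20.3%). With EGTA 3 and 4 rose in H1437-3 and H292-2 (15.8% and 23.2%) and 0 fell (14.8% and 21.7%). Under total-count scaling the counts were 0 and 4, 0 and 2, 3 and 0, and 4 and 0.

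Autophagy genes differed in the same way in part. EGTA raised ULK1 (0.70 and 0.71 in H1437-3 and H292-2) and ATG14 (0.73 and 0.72), and BAPTA-AM lowered ATG14 (-0.45 and -0.63) and UVRAG (-0.79 and -0.95). ATG14 was 37.5 and 36.7 CPM with BAPTA-AM and 80.8 and 86.7 with EGTA in H1437-3, and 15.3 and 14.6 with Aeg-S/L+BAPTA-AM and 33.9 and 42.6 with Aeg-S/L+EGTA in H292-2, on either side of DPBS in both. Of 11 hydrolases 0 rose, 6 fell and 5 did not pass with EGTA in H1437-3, where 14.8% of all genes fell, and under total-count scaling 0 rose and 1 fell. In H292-2, where 21.7% of all genes fell with EGTA, 0 rose and 11 fell (0 and 10 under total-count scaling). With BAPTA-AM 3 rose and 2 fell in H1437-3 and 0 rose and 3 fell in H292-2. Total-count scaling turned these to 8 and 1 and to 2 and 1. Over all genes 11.6% rose and 16.1% fell with BAPTA-AM in H1437-3, and 17.6% and 20.3% in H292-2. Mitochondrial counts moved with the chelators, at 0.796% to 1.15% with BAPTA-AM, 2.29% to 2.34% with EGTA and 3.26% to 3.45% with Aeg-S/L in H1437-3, and 0.190% to 0.217%, 1.06% to 1.40% and 1.82% to 2.05% in H292-2. Their part in these results was not tested.

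BAPTA-AM and EGTA, compared with each other, differed in 33 members in H1437-3, 14 higher with BAPTA-AM (16.7% of all genes) and 19 lower (21.1%). In H292-2 they differed in 29, 14 higher (21.9%) and 15 lower (24.7%). Under total-count scaling these were 15 and 18, and 17 and 13. FNIP1 differed by -2.29 ± 0.11 in H1437-3 and -2.28 ± 0.07 in H292-2, FLCN by -1.19 ± 0.13 and -1.62 ± 0.12, and ATG14 by -1.17 ± 0.07 and -1.35 ± 0.12 (adjusted p at most 2.4e-06). Of the hydrolases 8 were higher with BAPTA-AM in H1437-3 and 9 in H292-2, and 0 lower (9 and 10, and 0, under total-count scaling). Against DPBS, Aeg-S/L+BAPTA-AM gave 8 higher (15.0% of all genes) and 18 lower (19.1%) in H1437-3, and 4 higher (17.6%) and 14 lower (19.0%) in H292-2. Against DPBS, Aeg-S/L+EGTA gave 7 higher (4.19%) and 0 lower (0.988%) in H1437-3, and 7 higher (20.1%) and 16 lower (14.4%) in H292-2. The 2 agents share the Aeg-S/L and DPBS libraries of each experiment.

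**Figure D4:**
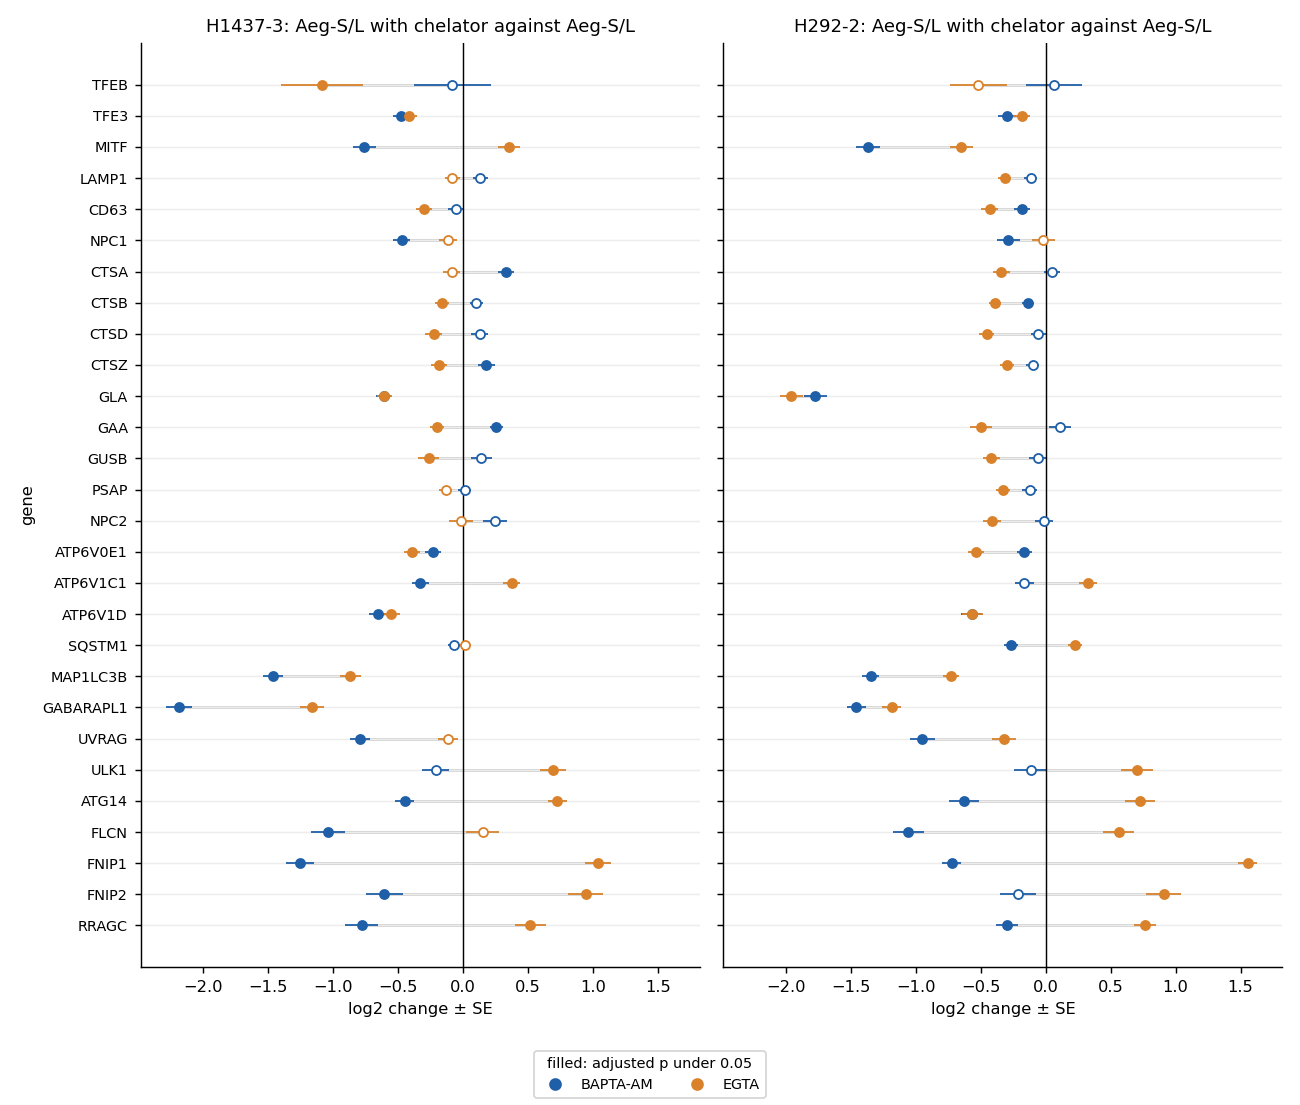
Log2 change from Aeg-S/L alone with SE when BAPTA-AM or EGTA was added, for members in H1437-3 and H292-2. FNIP1, FNIP2, RRAGC and ATG14 lie below 0 or near it with BAPTA-AM and above 0 with EGTA, whereas GABARAPL1, MAP1LC3B and GLA lie below 0 with both.

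The lines differed in some of these changes. In a joint fit, the change with WT ALT in H292-1 minus that in H1437-4 passed for 3 members in the higher direction (4.20% of all genes) and 6 in the lower (4.70%). That of Aeg-S/L in H292-2 minus H1437-3 passed for 5 higher (7.48%) and 5 lower (6.82%), or 3 and 8 under total-count scaling. The change of MITF was higher in NCI-H292 by 0.93 ± 0.16 with WT ALT and 1.29 ± 0.13 with Aeg-S/L, as were those of GLA (0.71 ± 0.15 and 1.18 ± 0.10) and UVRAG (0.80 ± 0.14 and 0.56 ± 0.12). SQSTM1 (-1.32 ± 0.17 and -0.77 ± 0.07), FNIP1 (-1.42 ± 0.20 and -0.72 ± 0.12), GABARAPL1 (-1.19 ± 0.25 and -0.67 ± 0.12) and MAP1LC3B (-0.61 ± 0.14 and -0.45 ± 0.11) had lower changes in NCI-H292 than in NCI-H1437. The calls of FNIP1, GABARAPL1, GLA, MITF, SQSTM1 and UVRAG were kept under every alternative in both comparisons, and that of MAP1LC3B in the second. Line and experiment cannot be told apart.

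**Figure D5:**
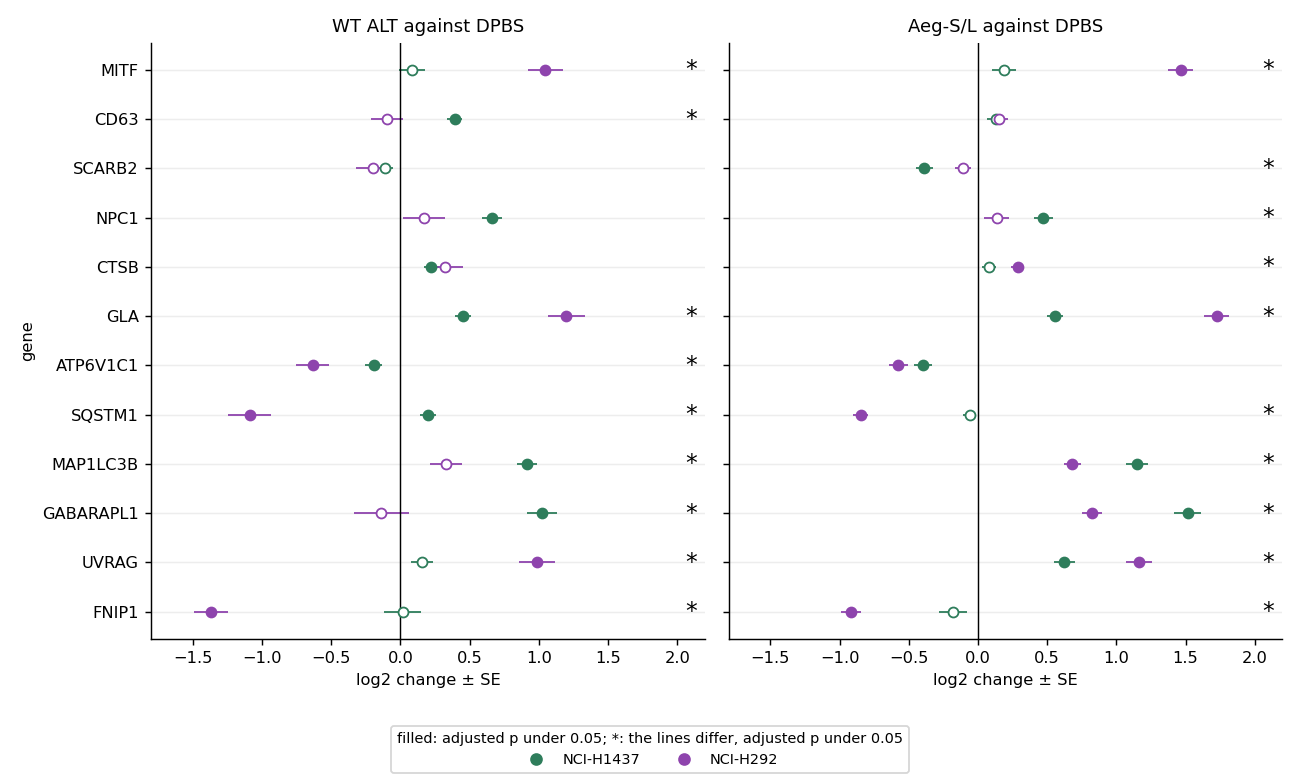
Log2 change from DPBS with SE (x axes) in NCI-H1437 (green) and NCI-H292 (purple) for WT ALT (H1437-4 and H292-1, left) and Aeg-S/L (H1437-3 and H292-2, right), for the 12 members whose change differed between the lines in either comparison; filled points passed against DPBS and stars mark a difference between lines. NCI-H292 lies to the right for MITF, GLA and UVRAG and to the left for SQSTM1, FNIP1 and GABARAPL1 in both panels.

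Other genes of the same pathways were read from lists with no member in common. Over all genes 15.4% rose and 15.8% fell in H1437-3, and 15.8% and 17.1% in H1437-4. In H292-1 11.6% of all genes rose and 11.3% fell, and in H292-2 22.1% and 21.1%. The counts here and in the following paragraphs stand beside these shares, and counts near them are not results about a list. Of 36 further genes of the autophagy machinery 6 rose and 8 fell in H1437-3, 7 and 11 in H1437-4, 2 and 4 in H292-1 and 7 and 11 in H292-2. ATG101, a partner of ULK1, rose in 5 of the 6 comparisons, by log2 1.45, 0.97, 0.65, 0.92 and 1.23 in H1437-2, H1437-3, H1437-4, H292-1 and H292-2. PIK3R4, the VPS15 subunit of the VPS34 complexes, fell in the same 5 (log2 -0.99, -0.94, -0.85, -1.13 and -1.61), and both chelators raised it in both lines relative to Aeg-S/L. PIK3C3, VPS34 itself, fell in the last 4 of these (-0.43, -0.61, -0.72 and -0.60). Under total-count scaling 5 and 11, 4 and 14, 1 and 5, and 3 and 14 of the 36 rose and fell.

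Of 21 genes of mTORC1 and its regulators 2 rose and 7 fell in H1437-3, 6 and 7 in H1437-4, 1 and 5 in H292-1 and 5 and 5 in H292-2 (2 and 7, 6 and 7, 1 and 6, and 3 and 7 under total-count scaling). The sestrins, which inhibit mTORC1, split: SESN2 rose in H1437-2, H1437-3, H1437-4, H292-1 and H292-2 (log2 1.42, 1.15, 0.98, 1.34 and 1.34), and SESN1 (-1.01, -1.27, -0.85, -2.26 and -2.05) and SESN3 (-1.19, -1.03, -1.21, -2.27 and -2.45) fell in the same 5.

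Of 36 further hydrolases and cofactors (35 tested in some experiments) 3 rose and 3 fell in H1437-3, 7 and 0 in H1437-4, 4 and 2 in H292-1 and 8 and 5 in H292-2, which total-count scaling turned to 1 and 5, 6 and 1, 1 and 3, and 3 and 11. DPP7, a peptidase, rose in these 4 (0.27, 0.36, 0.53 and 0.50). With EGTA against Aeg-S/L in H292-2, 0 of the 36 rose and 22 fell (0 and 13 under total-count scaling). Over all genes 23.2% rose and 21.7% fell in that comparison. Of 20 further membrane and sorting genes 1 rose and 4 fell, 1 and 1, 1 and 4, and 2 and 6 in the same 4 experiments. TMEM192 fell in H1437-3, H292-1 and H292-2 (-0.31, -0.65 and -0.60). Of 10 further V-ATPase genes 1 rose and 0 fell, 3 and 0, 1 and 1, and 2 and 1, and ATP6V0B rose in H1437-3, H1437-4 and H292-2 (0.39, 0.47 and 0.46). Of 6 galectins and sensors of lysosome damage 2 rose and 0 fell, 1 and 0, 1 and 1, and 1 and 2, where LGALS3, galectin-3, fell in NCI-H292 (-0.57 and -0.22) and PI4K2A, a kinase of lysosome repair, rose there (0.41 and 0.56). Under total-count scaling, in the same 4 experiments, rising and falling membrane and sorting genes were 1 and 9, 0 and 3, 0 and 4, and 0 and 8, V-ATPase genes 1 and 0, 2 and 1, 0 and 1, and 1 and 3, and galectins and sensors 0 and 2, 0 and 1, 0 and 2, and 1 and 3.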

How the data were processed

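RNA of 51 human cell line libraries (24 groups, 6 experiments) was analysed as the gene counts that the authors deposited, 32425310 to 53172930 per library. The 48 mouse columns were not analysed here. The authors used HISAT2 2.2.1, featureCounts 2.0.2, DESeq2 1.36.0 and build hg19, per the submitters' processing notes. Per the labels' protocols, libraries were made with a NEBNext Ultra kit, which does not mark strand, with strand use in counting not given in the sources used here. In H292-2 the columns for BAPTA-AM do not name Aeg-S/L and its table is named for ALT. They were taken as labelled, since no other samples there had BAPTA-AM.

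Of 57820 gene IDs 51996 matched a name. Each experiment was fitted alone with edgeR 4.0.16 (R 4.3.3): filterByExpr (minimum count 10, total 15), TMM, 1 coefficient per group, quasi-likelihood F test, Benjamini-Hochberg adjustment over all genes, called at an adjusted p under 0.05. SE is the absolute log2 change over the square root of F. Lines were compared in joint fits. CPM is TMM-scaled and FPKM is CPM per kilobase of the deposited gene length. The members and lists were chosen with earlier results of these data known. Members named with each library's value are TFEB, TFE3 and MITF and the 12 members called in the most stimulus comparisons, with ties ordered by the mean absolute log2 change over the 6. Those named for an inhibitor or chelator are up to 3 per comparison with the largest changes called, other members complete a count, and up to 3 genes of each further list are named. FNIP1 and FLCN are also described in the stimulus or chelator comparisons because of their values. Alternatives were DESeq2 1.42.0, no low-count filter, DESeq2 size factors, total-count scaling, a replicate block and leaving out each library. The steps were tested on simulated data. Modelled on ALT against DPBS in H1437-1, they called 0 of 67 genes changed by log2 0.5 and 7 of 66 changed by log2 1. Modelled on Aeg-S/L against DPBS in H292-2, they called 39 of 65 and 51 of 66. Changes within 2-fold were thus seldom called in the simulation modelled on H1437-1. Of genes changed by log2 2, 53 of 66 and 58 of 66 were called. Of unchanged genes 4 of 15704 and 16 of 15673 were called. The simulations changed far fewer genes than were called in the data (766 and 7081), so calling rates in the data may differ. No 2 replicates agreed within sampling noise (chi-square per degree of freedom at least 3.94). Deviations of replicates with the same number correlated at -0.14 to 0.47. All 3 pairs of ALT+Tra and DPBS in H1437-1 were over 0.1 (0.12, 0.37 and 0.47), and the replicate block also called 0 members there. DPBS and aegs KO ALT in H292-1 correlated at 0.26, where the block again called 0 members. Aeg-S and Aeg-S/L+Tra in H1437-2 correlated at 0.10. The main fits held no term for pairs in any experiment. RefSeq promoter windows (GRCh38.p14) matched 33 of 44 members.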

Additional observations from a re-analysis of the deposited data

Results flagged for a closer look

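The change of 12 members under a stimulus differed between NCI-H292 and NCI-H1437 by the test of the difference itself, in the joint fits with edgeR's quasi-likelihood test. Values are the log2 change in NCI-H292 minus that in NCI-H1437. With WT ALT (H292-1 against H1437-4) and with Aeg-S/L (H292-2 against H1437-3), in that order, the difference was above 0 for MITF (0.93 and 1.29), UVRAG (0.80 and 0.56) and GLA (0.71 and 1.18), and below 0 for FNIP1 (-1.42 and -0.72), SQSTM1 (-1.32 and -0.77), GABARAPL1 (-1.19 and -0.67) and MAP1LC3B (-0.61 and -0.45). With WT ALT alone it passed for ATP6V1C1 (-0.47) and CD63 (-0.52). With Aeg-S/L alone it passed for SCARB2 (0.30), CTSB (0.22) and NPC1 (-0.32). Each line had its own experiments, so line and experiment cannot be told apart.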

How the results depend on the processing

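Of 417 calls of members over all comparisons 242 were kept under every alternative and 175 were lost under at least 1. Calls lost numbered 8 with DESeq2, 9 with DESeq2 size factors, 29 without the low-count filter and 66 with total-count scaling. Under that scaling 4 of these changed sign and no longer passed: LAMP1 with Aeg-S/L against DPBS in H292-2 (-0.0214), and ATP6V0E1 (0.0183), CTSB (0.0481) and CD63 (0.00189) with BAPTA-AM against Aeg-S/L in H292-2. The cause was not tested.

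Counts of members called moved by more than 1.5 times in these cases. With DESeq2 they were 2 for ALT against DPBS in H1437-1 (1 by edgeR), 1 for ALT+Tra against DPBS (0), 5 for ALT+Tra against ALT (2), 7 for Aeg-S/L in H1437-2 (4), 2 for each KO extract against DPBS in H1437-4 (1 each), 1 for aegl KO ALT against DPBS in H292-1 (0) and 4 for Aeg-S/L against the sum of its subunits (1). Over all genes DESeq2 called 1394, 408, 1593, 1931, 361 (aegs KO ALT), 298 (aegl KO ALT), 280 and 1420 in that order. Without the low-count filter the counts of members were 3, 4 and 6 for the H1437-1 comparisons in that order, 2 for Aeg-S, 1 for Aeg-S/L+Tra against DPBS, 2 for aegl KO ALT against DPBS in H1437-4 and in H292-1, and 4 for the sum. Over all genes they were 1153, 1050, 1864, 278, 306, 488, 763 and 1913 in the same order. For aegl KO ALT against DPBS in H1437-4 size factors and total-count scaling each gave 2 members, with 130 and 156 of 16711 genes called. When replicate number entered the fits as a block, the sum test gave 0 calls and 7 calls were lost over all comparisons. The losses were in H1437-2 and H1437-4, and the block changed no call in H1437-1.

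Leaving out 1 library, counts of members called ranged in H1437-1 from 0 to 6 (ALT against DPBS), 0 to 0 (ALT+Tra against DPBS) and 0 to 3 (ALT+Tra against ALT). In H1437-2 they ranged from 0 to 0 for Aeg-S/L, Aeg-L and Aeg-S/L+Tra against DPBS and for Aeg-S/L+Tra against Aeg-S/L, 0 to 14 for Aeg-S and 0 to 21 for the sum. In H1437-3 they ranged from 13 to 16 for Aeg-S/L, 21 to 25 and 3 to 7 for BAPTA-AM and EGTA against DPBS, 18 to 19 and 15 to 18 against Aeg-S/L, and 26 to 29 between the chelators. In H292-2 the same ranges were 19 to 21, 11 to 14, 15 to 23, 12 to 13, 26 to 32 and 25 to 31. For WT ALT, aegs KO ALT and aegl KO ALT against DPBS and the KO extracts against WT ALT they were 14 to 23, 0 to 1, 0 to 1, 11 to 21 and 9 to 24 in H1437-4, and 10 to 12, 0 to 0, 0 to 0, 9 to 20 and 6 to 14 in H292-1. Between lines they were 6 to 9 for WT ALT and 7 to 11 for Aeg-S/L. A group left with 1 library was assumed to vary like the others. The shares of all genes called in these fits are not given here. The ranges thus show only how far the counts depended on single libraries.

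With 2 or 3 libraries per group, changes of scarce genes such as TFEB, ATG9B and RRAGD had wide errors, and a member that did not pass is not shown to be unchanged.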
